A study of Mus musculus with 7 samples.

Results

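The 8 genes described here encode fibronectin (Fn1) and 7 matricellular proteins, that is secreted proteins of the extracellular matrix that regulate how cells and matrix act on each other rather than building the scaffold: periostin (Postn), transforming growth factor beta induced (Tgfbi), Sparc, Sparcl1, osteopontin (Spp1), Smoc1 and Smoc2. They were chosen by name as a family and not by a cut on measured values, but with earlier results of these data known. All 8 were found among the 53465 genes of the count table. RNA from whole breast tumor tissue was sequenced in 7 libraries. EMT6, a mouse mammary carcinoma cell line, was grown orthotopically in Balb/c mice that received 250 μg of antibody per mouse every 3 days until the institutional endpoint. The 3 EMT6-P tumors were treated with the isotype control antibody. The 3 EMT6-PTR tumors, which the labels call PDR, came from the resistant variant under treatment with anti-PD-L1 (αPD-L1). The last library is 1 metastasis of the same resistant variant under the same treatment, with no replicate and no site given. Resistant variant and antibody therefore change together, and their parts cannot be told apart. The labels number the samples of a group without naming a mouse for each, and the study calls its replicates technical unless it specifies otherwise. The 3 samples of a group are called tumors here, and p-values measure only the spread between these samples.

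Fibronectin is a large fibrillar glycoprotein that cells assemble through integrins, and collagens and several of these matricellular proteins bind to the resulting network. Periostin and Tgfbi are fasciclin-domain relatives that bind collagen and integrins, Sparc, Sparcl1, Smoc1 and Smoc2 share a cysteine-rich calcium-binding domain, and osteopontin is an acidic, phosphorylated integrin and CD44 ligand made by macrophages and many carcinoma cells. In tumors most of the others are produced largely by fibroblasts, with Sparcl1 also made by vessels. In bulk tissue, fewer cells of a type and less RNA per cell cannot be told apart.

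Fn1, Spp1 and Tgfbi carry an Arg-Gly-Asp (RGD) site, the tripeptide that integrins recognise, and these stretches are shown because the integrin receptors of the family are described further on. The stretches come from the longest complete reading frame of each gene in GENCODE M21 (GRCm38) and are written 5′ to 3′ on the coding strand, with the RGD codons in capitals.
Fn1, chr1:71606734-71606766, minus strand, exon 30 of 46: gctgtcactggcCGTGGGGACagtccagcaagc
Spp1, chr5:104439469-104439501, plus strand, exon 7 of 8: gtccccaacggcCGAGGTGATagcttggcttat
Tgfbi, chr13:56637143-56637175, plus strand, exon 15 of 17: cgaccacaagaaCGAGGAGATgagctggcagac
The site began at codon 1614 of 2477 in Fn1, where a further RGD is encoded elsewhere in the frame, at codon 145 of 295 in Spp1 and at codon 642 of 683 in Tgfbi. The 838 codons of Postn, the relative of Tgfbi, held none, and neither did those of Sparc, Sparcl1, Smoc1 or Smoc2. Cysteine codons made up 5.42% of the Sparc frame, 5.02% of Smoc2, 4.75% of Smoc1 and 2.31% of Sparcl1. They made up 2.58% in Fn1, more than in Sparcl1, and 1.61% in Tgfbi, 1.43% in Postn and 0.678% in Spp1.

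For Postn, the member that varied most among the libraries, and Spp1, the most abundant per length, the 250 bases before a RefSeq start site are shown (GRCm38.p6, gene direction), using the sites nearest to the GENCODE gene starts, 2 and 7 bases away. Capitals mark the TATA box letters TATAAA.
Postn, chr3:54360857-54361106, plus strand: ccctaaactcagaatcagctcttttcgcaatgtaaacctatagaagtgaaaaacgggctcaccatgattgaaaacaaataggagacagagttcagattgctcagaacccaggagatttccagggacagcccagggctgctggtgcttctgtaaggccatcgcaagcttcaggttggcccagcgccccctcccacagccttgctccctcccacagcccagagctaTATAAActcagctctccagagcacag
Spp1, chr5:104434861-104435110, plus strand: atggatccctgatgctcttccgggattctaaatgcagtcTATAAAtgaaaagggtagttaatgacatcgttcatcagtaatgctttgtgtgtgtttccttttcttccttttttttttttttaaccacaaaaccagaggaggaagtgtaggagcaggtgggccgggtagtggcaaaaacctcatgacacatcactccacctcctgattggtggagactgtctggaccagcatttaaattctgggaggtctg
Postn held TATAAA from -26 to -21, counted back from the start site, and Spp1 from -211 to -206, much farther from it. These are matches of letters only, and whether either works as a TATA box was not tested. On either strand these letters occurred in 12.4% of 32851 mouse windows of the same length. Neither window held the AP-1 letters TGANTCA (6.75% of windows) or the TEAD letters CATTCC (12.6%), which says only that these letters are not in these windows.

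Depth was similar among the libraries, with 20430110 to 25213472 estimated counts, of which the 8 members took 1.29% to 2.00%. EMT6-PTR replicate 3 stood apart from the other 5 tumors. Its summed fibroblast markers reached 12431 CPM (counts relative to the upper-quartile scaled size of each library) against 5076 to 7595, its smooth muscle and pericyte markers 82.2 against 646 to 1116, and its epithelial markers 611 against 2378 to 2728. The 10 fibroblast markers did not move as a block in it: Dcn was at 3346 CPM against 32.2 to 104, whereas Thy1 was at 6.68 against 63.2 to 114. Nor did the 6 epithelial markers: Krt8 was at 505 CPM against 1685 to 1898, whereas Epcam (8.83) lay within 4.79 to 10.6. Skeletal muscle markers ranged from 3.52 to 3323 CPM among the tumors without following the groups. Tendon and cartilage markers, nearly all Scx, were at 35.3 to 51.9 CPM in EMT6-P and 12.1 to 27.8 in EMT6-PTR. Adipocyte markers, mostly Fabp4, were at 9.76 to 20.2 CPM in EMT6-P and 20.4 to 30.2 in EMT6-PTR. Both sums were low but did not overlap between groups, as 11.8% of all genes tested lay below and 9.52% above in this way. As edgeR's common dispersion, the spread between tumors reached 0.246 among EMT6-PTR and 0.0266 among EMT6-P. Fold changes and ratios that depend on this tumor are therefore also given without it, where this was computed.

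Compared on CPM per kilobase of the principal transcript, a level per length, Spp1 (median 2020.4 over the 7 libraries), Sparc (1061) and Fn1 (894) led the family, followed by Postn (288), Tgfbi (134), Sparcl1 (26.3), Smoc2 (2.48) and Smoc1 (0.975). The ranges of neighbours in this order overlapped except between Tgfbi and Sparcl1 and between Sparcl1 and Smoc2. Spp1 was first in the 5 libraries other than EMT6-PTR replicate 3 and the metastasis, in which Sparc was first. Postn moved from rank 4 in the other 6 libraries to rank 2 in EMT6-PTR replicate 3, at 1792 CPM per kilobase. Per kilobase of all annotated exons the medians had the same order, with Smoc2 and Smoc1 at 1.01 and 0.944, but ranks within libraries changed. Spp1 was then first in all 7 libraries, with 1574 against 1130 for Sparc in EMT6-PTR replicate 3, where Postn was at rank 3, and Postn fell behind Tgfbi in 3 of the other libraries.

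**Figure D1:**
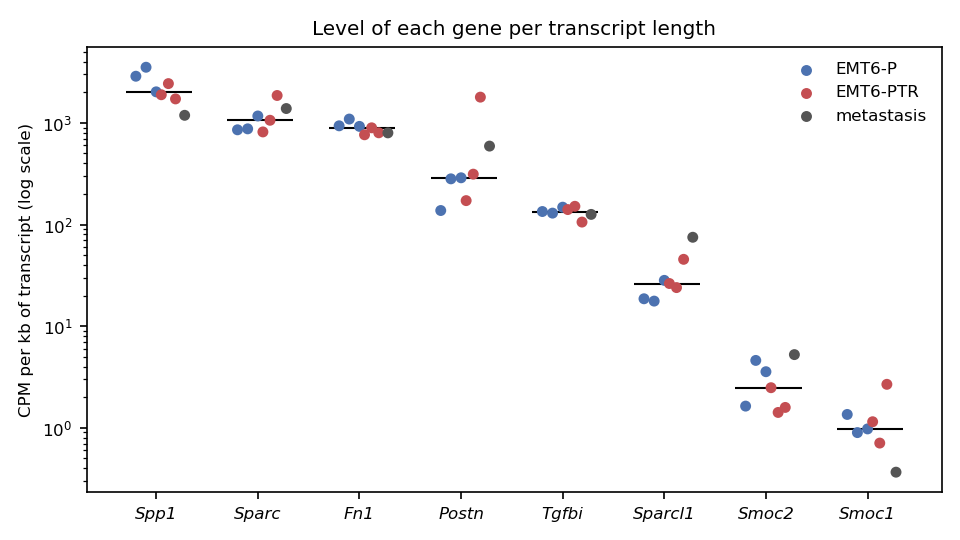
CPM per kilobase of the principal transcript (log scale) for the 8 genes, 1 point per library, with EMT6-P in blue, EMT6-PTR in red and the metastasis in grey, and the median of the 7 libraries as a line. Spp1, Sparc and Fn1 lie at medians of 2020.4, 1061 and 894, Smoc1 at 0.975, and Postn of EMT6-PTR replicate 3 at 1792.

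Setting EMT6-PTR against EMT6-P asks whether these genes differ between αPD-L1-resistant and parental tumors. Postn had the largest fold change in the family, 4 members were higher on average (Postn, Sparcl1, Smoc1, Sparc) and 4 lower (Smoc2, Spp1, Fn1, Tgfbi), and none passed the test. In edgeR (quasi-likelihood test, Benjamini-Hochberg over all 15645 genes tested), 0 members and 0 genes at all (0.0%) were called at an adjusted p of 0.05. At an unadjusted p under 0.05 the test gave 1786 genes (11.4%), among them 0 members, and DESeq2 called 138 genes higher and 143 lower, again with 0 members. The median log2 fold change of the 8 members was 0.16, beside 0.025 over all genes tested. Its sign rested on EMT6-PTR replicate 3. Without that tumor Sparc (-0.044) and Smoc1 (-0.21) fell below 0 and Tgfbi (0.085) rose above it, and the median of the members lay below 0.

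Fibronectin was the member whose groups did not overlap. Fn1 (ENSMUSG00000026193.15, chr1:71585520-71653200, minus strand) stood at 7781, 9067 and 7684 CPM in the EMT6-P tumors, at 6352, 7438 and 6644 CPM in the EMT6-PTR tumors, and at 6633 CPM in the metastasis. Every EMT6-PTR tumor lay below every EMT6-P tumor, though the highest of the one group and the lowest of the other were close. The means were 8177 ± 772 and 6811 ± 562 (SD, n = 3 each), a log2 fold change of -0.26 ± 0.19 (SE; edgeR adjusted p = 0.58). Across all genes tested, 11.8% lay lower in this way, and 1 of 8 members is near that share. Fn1 shares 292 exon bases with Apol7d on the opposite strand, at which at most 19.6 counts per library were assigned against 133537 or more for Fn1.

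Periostin, which fibroblasts deposit in wound and tumor stroma, separated a single tumor from the rest. Postn (ENSMUSG00000027750.16, chr3:54361109-54391037, plus strand) was at 438, 898 and 919.5 CPM in EMT6-P, at 548, 998 and 5715 CPM in EMT6-PTR, and at 1885 CPM in the metastasis. The first 2 EMT6-PTR tumors lay within or just above the EMT6-P range, and replicate 3 was 5.73-fold above the next tumor and 7.60-fold above the EMT6-P mean. The means were 752 ± 272 and 2420.3 ± 2862 CPM (SD, n = 3 each), a log2 fold change of 1.69 ± 0.88 (SE; edgeR adjusted p = 0.49). DESeq2 gave it an adjusted p of 0.25. Without EMT6-PTR replicate 3 the log2 fold change was 0.039. Postn was the 1 member at least 2-fold higher in EMT6-PTR, beside 6.27% of all genes tested, and the 1 member for which replicate 3 exceeded the next tumor at least 2-fold, beside 5.91%. The study lists Postn, Dcn and Lum among preliminary secretory genes of resistance chosen on these samples, so their directions here are not independent evidence. In replicate 3 the fibroblast genes Dcn, Lum (515 CPM against 18.2 to 63.4) and Pdgfra (345 against 31.2 to 61.7) were also highest, as 6 of the 10 fibroblast markers were. Thy1, Pdpn (39.3 against 60.2 to 77.4) and Dpt (1.41 against 2.83 to 6.20) were lowest there and Col1a1 (2755) lay within the range of the others. Their part in the Postn value was not tested.

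Tgfbi, the fasciclin relative of Postn and a gene named for its induction by TGF-beta, did not follow it. Tgfbi (ENSMUSG00000035493.10, chr13:56609523-56639562, plus strand) was at 364, 351 and 402 CPM in EMT6-P, at 381, 410.1 and 287 CPM in EMT6-PTR and at 341 CPM in the metastasis. The groups overlapped, and the tumor with the highest Postn had the lowest Tgfbi. The log2 fold change was -0.052 ± 0.18 (SE, n = 3 each; edgeR adjusted p = 0.92), and its sign turned without EMT6-PTR replicate 3 (0.085) or EMT6-P replicate 3 (0.0059). The Postn to Tgfbi count ratio was 1.20, 2.55 and 2.29 in EMT6-P, 1.44, 2.43 and 19.9 in EMT6-PTR and 5.52 in the metastasis. Its log2 difference between groups of 1.10 gave p = 0.5 in an exact two-sided permutation test over 20 assignments, whose smallest possible p is 0.1, and was -0.033 without EMT6-PTR replicate 3.

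Sparc, a collagen-binding and counter-adhesive protein, and its relative Sparcl1 (hevin) both peaked among the tumors in EMT6-PTR replicate 3. Sparc (ENSMUSG00000018593.13, chr11:55394500-55423183, minus strand) was at 1967, 2009.6 and 2689 CPM in EMT6-P, at 1874, 2440.5 and 4279 CPM in EMT6-PTR and at 3184 CPM in the metastasis. The groups overlapped, with 1 EMT6-PTR tumor below all EMT6-P tumors and 1 above. The log2 fold change was 0.37 ± 0.34 (SE, n = 3 each; edgeR adjusted p = 0.66), and -0.044 without replicate 3.

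Sparcl1 (ENSMUSG00000029309.7, chr5:104079111-104113733, minus strand) was at 51.3, 48.7 and 77.9 CPM in EMT6-P, at 72.5, 66.1 and 125 CPM in EMT6-PTR and at 207 CPM in the metastasis. A single EMT6-P tumor, replicate 3, reached into the EMT6-PTR range. The log2 fold change was 0.57 ± 0.31 (SE, n = 3 each; edgeR adjusted p = 0.49), and it stayed above 0 with any 1 tumor left out, from 0.22 to 0.82. The Sparc to Sparcl1 count ratio was 38.3, 41.3 and 34.5 in EMT6-P, 25.8, 36.9 and 34.1 in EMT6-PTR and 15.4 in the metastasis. The log2 difference between groups of -0.25 gave p = 0.2 (exact two-sided permutation test), and was -0.096 without EMT6-PTR replicate 1.

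Smoc1 and Smoc2, secreted modular calcium-binding proteins that modulate growth factor signaling, were scarce, with 31 to 232 and 72 to 372 estimated counts per library. Smoc1 (ENSMUSG00000021136.13, chr12:81026808-81186414, plus strand) was at 4.58, 3.04 and 3.30 CPM in EMT6-P, at 3.88, 2.40 and 9.06 CPM in EMT6-PTR and at 1.24 CPM in the metastasis. Replicate 3 of EMT6-PTR was again the highest, and the other 2 lay within or below the EMT6-P range. The log2 fold change was 0.49 ± 0.52 (SE, n = 3 each; edgeR adjusted p = 0.70), and -0.21 without replicate 3.

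Smoc2 (ENSMUSG00000023886.9, chr17:14279506-14404790, plus strand) was at 4.63, 13.0 and 10.1 CPM in EMT6-P, at 7.03, 4.01 and 4.49 CPM in EMT6-PTR and at 14.9 CPM in the metastasis. EMT6-P replicate 1 fell into the EMT6-PTR range, while the other 2 EMT6-P tumors lay above it. The log2 fold change was -0.84 ± 0.43 (SE, n = 3 each; edgeR adjusted p = 0.48), from -1.16 to -0.51 with 1 tumor left out. The Smoc2 to Smoc1 count ratio was 1.01, 4.27 and 3.04 in EMT6-P, 1.80, 1.67 and 0.497 in EMT6-PTR and 11.8 in the metastasis. Its log2 difference of -1.04 gave p = 0.3 (exact two-sided permutation test). Leaving out EMT6-PTR replicate 3 gave -0.44, and leaving out EMT6-P replicates 2 and 1 gave -0.62 and -1.66.

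Osteopontin was lower on average in EMT6-PTR, with groups that overlapped. Spp1 (ENSMUSG00000029304.14, chr5:104435118-104441050, plus strand) was at 4337, 5316 and 3045 CPM in EMT6-P, at 2851, 3669 and 2594 CPM in EMT6-PTR and at 1789 CPM in the metastasis. Replicate 3 of EMT6-P fell into the EMT6-PTR range. The means were 4232 ± 1139 and 3038 ± 561 CPM (SD, n = 3 each), and the log2 fold change was -0.48 ± 0.27 (SE; edgeR adjusted p = 0.50), from -0.67 to -0.28 with 1 tumor left out. The summed macrophage markers, from cells that make osteopontin, were at 1158 to 1391 CPM in EMT6-P and 1066 to 1401 in EMT6-PTR. They reached 968 CPM in the metastasis. The summed epithelial markers were lowest in EMT6-PTR replicate 3 and the metastasis (611 and 1182 CPM), a sum carried mostly by keratins. Epcam (52.2 CPM against 4.79 to 10.6 in the tumors) and Cdh1 (138 against 3.40 to 9.69) were highest in the metastasis. The part of these cells in the Spp1 values was not tested. Spp1 shares 309 exon bases with Gm42793 on the same strand, which received at most 77.8 counts per library.

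**Figure D2:**
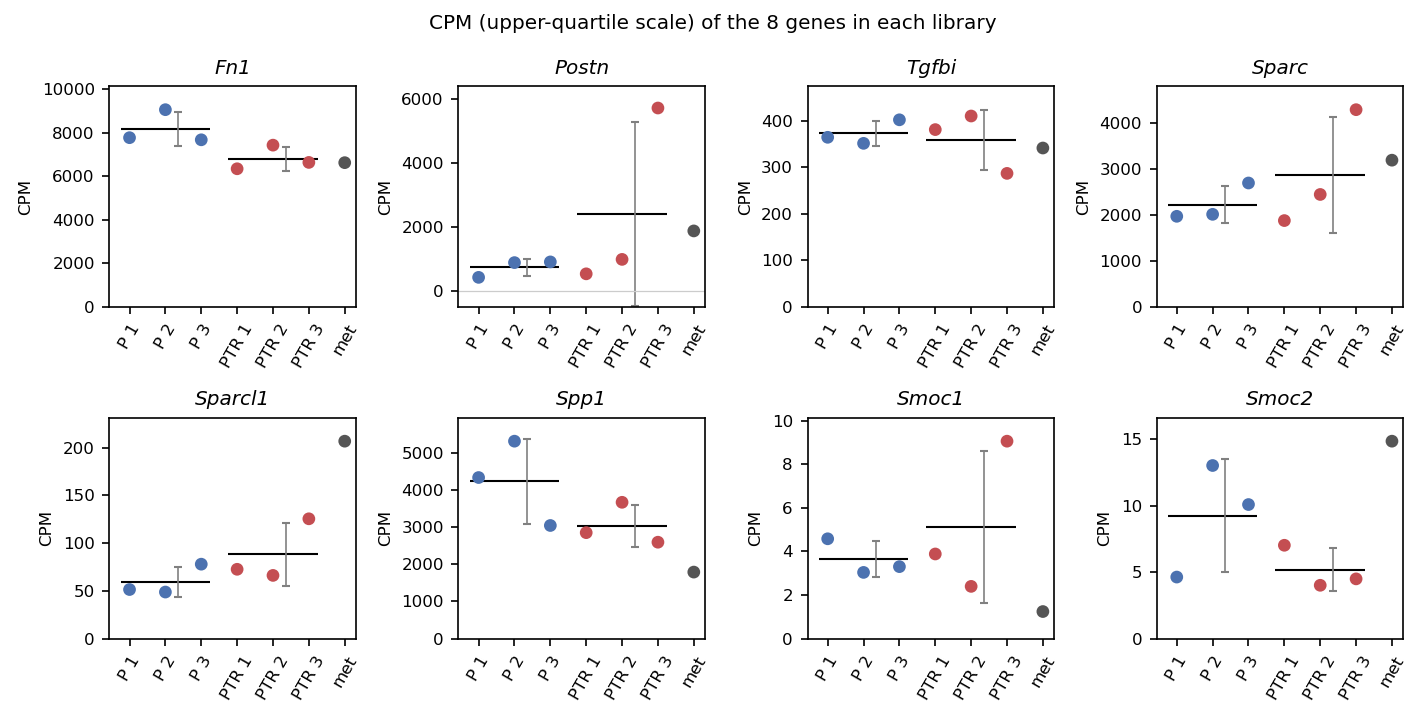
CPM on the upper-quartile scale (linear axes that include 0, 1 panel per gene) in each library, with EMT6-P (P) in blue, EMT6-PTR (PTR) in red and the metastasis (met) in grey; lines are group means and grey bars the SD of 3 tumors. Postn reaches 5715 CPM in EMT6-PTR replicate 3 against 438 to 998 in the other tumors, and every EMT6-PTR tumor lies below every EMT6-P tumor for Fn1.

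Read by tumor, 4 of 8 members (Postn, Sparc, Sparcl1 and Smoc1) had their top value in EMT6-PTR replicate 3, against 32.7% of all genes tested. The coefficient of variation was larger in EMT6-PTR for 5 of 8 members, the same 4 and Tgfbi, against 82.8% of all genes. The share of members was below that of all genes. For Postn this coefficient was 118% among EMT6-PTR and 36.2% among EMT6-P, and for Fn1 8.25% and 9.45%. No member had all EMT6-PTR tumors above all EMT6-P tumors, as 9.52% of all genes did. Without EMT6-PTR replicate 3, a comparison added after seeing the data, 0 members lay above (18.2% of all genes) and 1, Fn1, below (21.8% of all genes).

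**Figure D3:**
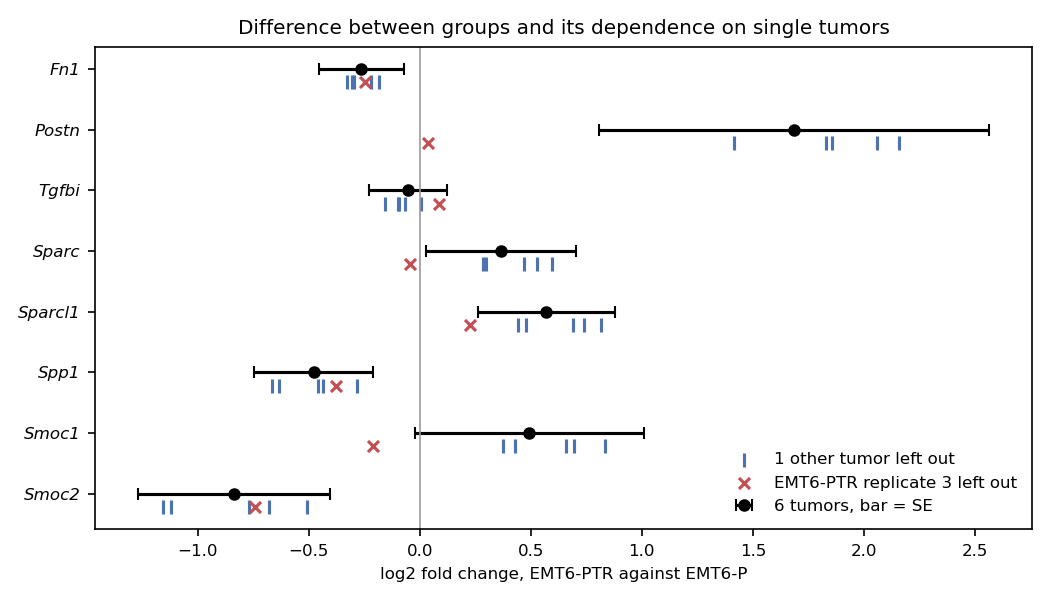
Log2 fold change of EMT6-PTR against EMT6-P for the 8 genes (edgeR, 3 tumors a group; dot and bar are estimate and SE), with the estimates after leaving out EMT6-PTR replicate 3 (red cross) or any other single tumor (blue ticks). The Postn estimate moves from 1.69 to 0.039 without EMT6-PTR replicate 3, and those of Sparc and Smoc1 turn to -0.044 and -0.21.

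Set against the summed counts of the 10 fibroblast markers in the same library, 2 of 8 members, Sparc and Fn1, were lower in every EMT6-PTR tumor, beside 20.6% of all genes set against the same sum, and 0 members were higher (0.959%). Sparc counts were 0.354 to 0.402 of the marker sum in EMT6-P and 0.314 to 0.344 in EMT6-PTR, a log2 difference of -0.22. Fn1 counts were 1.15 to 1.60 times the marker sum in EMT6-P and 0.534 to 1.06 times in EMT6-PTR, a log2 difference of -0.78. Both gave p = 0.1 (exact two-sided permutation test, 8 members compared), the smallest that 3 against 3 allows, and so cannot pass a threshold of 0.05. For Fn1 the difference was -0.47 without EMT6-PTR replicate 3. With Col1a1 and Col1a2 left out of the markers, the differences were -0.98 for Sparc and -1.54 for Fn1. Each had p = 0.2 in the exact permutation test, so neither separated the groups any longer. Of the markers left, Dcn was the highest in EMT6-PTR replicate 3, at 3346 CPM against 32.2 to 104 in the other tumors. These larger differences therefore lean on that tumor, and they were not computed without it. The ratios of the other 6 members overlapped, with p from 0.2 to 0.8 in the same exact permutation test.

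Receptors of these ligands were measured alongside. Of 12 integrin subunits and other receptors, 0 passed the adjusted test in either direction, and 4 lay above 0 and 8 below, with a median log2 fold change of -0.18. Without EMT6-PTR replicate 3, Itga5 (0.014), Itgav (0.023), Itgb3 (0.24) and Sdc4 (0.14) turned above 0. Itga8, Itgb1, Itgb5 and Cd44 then still lay below, so the balance of directions rested on that tumor. Itgb8, an integrin subunit that binds latent TGF-beta, was at 6.97, 13.4 and 17.9 CPM in EMT6-P and 13.0, 41.7 and 42.0 CPM in EMT6-PTR (log2 fold change 1.34 ± 0.53, SE; edgeR adjusted p = 0.43). Itgb5, which pairs with Itgav in an RGD-binding integrin, was lower in all 3 EMT6-PTR tumors, at 448 to 497 CPM against 537 to 702 (-0.37 ± 0.16; edgeR adjusted p = 0.44). Of the 12 receptors, 1 lay below in this way and 0 above, beside 11.8% and 9.52% of all genes tested. Itgb1, the common partner of the fibronectin receptor, had a log2 fold change of -0.39 ± 0.19 (edgeR adjusted p = 0.47).

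Of the 10 genes of the TGF-beta axis, 0 passed the adjusted test, with a median log2 fold change of 0.21. The ligand Tgfb3 was at 59.8, 70.4 and 86.4 CPM in EMT6-P and 100.2, 89.8 and 118 CPM in EMT6-PTR (0.51 ± 0.19; edgeR adjusted p = 0.43). The receptor Tgfbr1 (0.37) and the ligand Tgfb2 (-0.89) had groups that overlapped. The study lists Tgfb2 among preliminary secretory genes lower in resistance, chosen on these samples, so its direction is not independent evidence. Of the 10 genes, 1 (Tgfb3) lay above without overlap and 0 below, beside 9.52% and 11.8% of all genes tested.

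Of 12 matrix partners, collagens, small proteoglycans and enzymes that these proteins bind or that crosslink the matrix, 10 were above 0 in log2 fold change and 0 passed the adjusted test (median 0.56). Lox, the collagen crosslinking enzyme that periostin helps to activate through Bmp1, was at 138, 144 and 142 CPM in EMT6-P and at 218, 408 and 452 CPM in EMT6-PTR (1.35 ± 0.28; edgeR adjusted p = 0.42). Its groups did not overlap. Of the 12 partners, 1 lay above in this way and 0 below, beside 9.52% and 11.8% of all genes tested. Dcn (4.67 ± 1.69) and Col3a1 (2.15 ± 0.81) had the next smallest p-values (edgeR adjusted p = 0.43 for both), and their group values overlapped. For both, replicate 3 was highest, with Col3a1 at 9088 CPM against 734 to 1998 in the other tumors. Without it the log2 fold changes were 0.62 for Dcn and 0.70 for Col3a1, and 1.15 for Lox. The study lists Lox, Dcn and Col3a1 among its preliminary secretory genes, chosen on these samples. The partner list was also chosen with earlier results of these data known. Neither these directions nor the count of 10 above 0 is therefore independent evidence.

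Among 12 tested genes of 14 further matricellular genes, the thrombospondins, tenascins and CCN proteins, 7 were above 0 and 0 passed the adjusted test (median 0.39). Ccn2, a connective tissue growth factor, was at 262, 288 and 291 CPM in EMT6-P and 332, 673 and 2810.2 CPM in EMT6-PTR (2.18 ± 0.75; edgeR adjusted p = 0.43). Comp (4.69) and Ccn3 (1.53) were likewise above in all 3 EMT6-PTR tumors, both at low level, with EMT6-P at no more than 0.519 and 1.03 CPM. Of the 12 genes, 3 (Ccn2, Comp and Ccn3) lay above without overlap and 0 below, beside 9.52% and 11.8% of all genes tested. Without EMT6-PTR replicate 3 the log2 fold changes were 0.84 for Ccn2, 2.18 for Comp and 1.66 for Ccn3. Comp is also among the preliminary secretory genes that the study chose on these samples, so its direction is not independent evidence. Of 10 structural relatives, 3 passed the filter on low counts, Fstl1, Stab1 and Dmp1, with log2 fold changes of -0.069, -0.0021 and -0.52 and groups that overlapped, and 0.37, 0.13 and -0.094 without that tumor.

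**Figure D4:**
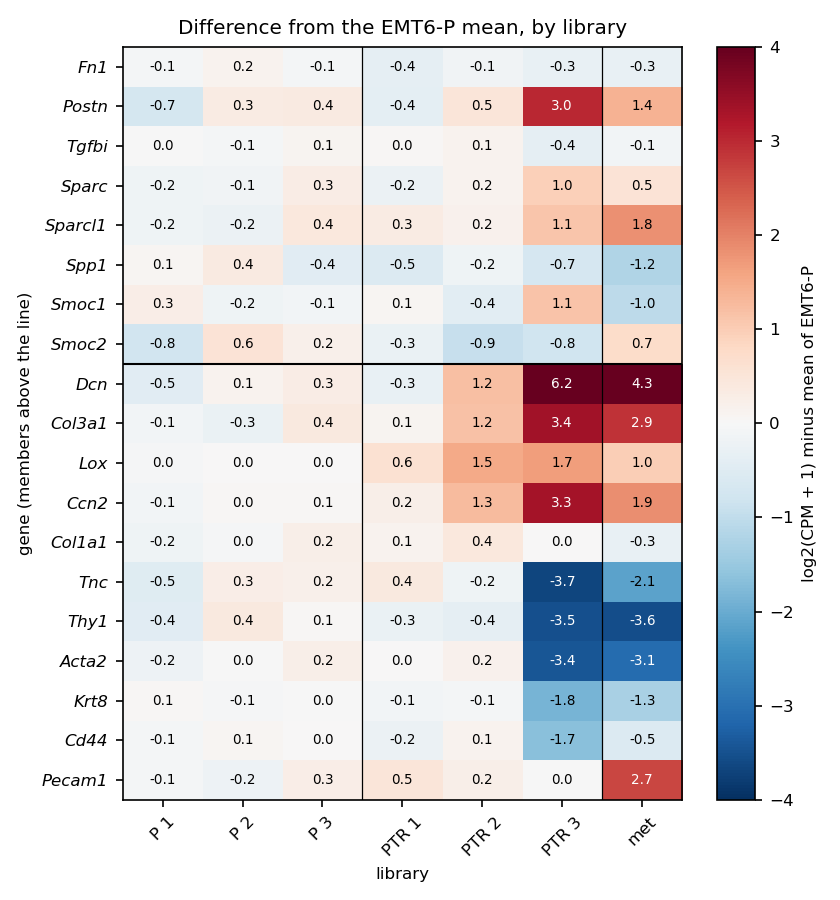
Difference of log2(CPM + 1) from the mean of the 3 EMT6-P tumors for the 8 members (above the line) and 11 partner, receptor and marker genes picked after their values were seen, by library (P, EMT6-P; PTR, EMT6-PTR; met, metastasis); red is higher and blue lower. EMT6-PTR replicate 3 and the metastasis share high Postn (3.0 and 1.4), Dcn (6.2 and 4.29) and Col3a1 (3.36 and 2.9) with low Acta2 (-3.41 and -3.09).

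Nearest to Postn in pattern over the 7 libraries, by the root mean square difference of centred log2 CPM, was Mmp2 (0.18), a matrix metalloproteinase, then Dact3 and Nrep (both 0.27). Mmp2 is, like Postn, among the preliminary secretory genes that the study chose on these samples. Its nearest family member was Sparc, at 0.78, whereas Tgfbi was at 1.28. Fn1 and Tgfbi were each other's nearest member at 0.20, and Sparc and Sparcl1 at 0.46. The SD of log2 CPM over the libraries was 0.18 for Fn1, 0.17 for Tgfbi, 0.43 for Sparc and 0.74 for Sparcl1. The distance of 0.20 exceeded the SD of both its genes, so it shows no shared pattern. The distance of 0.46 exceeded the SD of Sparc but not that of Sparcl1. The genes nearest to the flat members were Pdss2 (0.047), Gm10093 (0.056) and Spcs2 (0.062) for Fn1, and for Tgfbi Fbxo28 (0.058) and D17H6S53E (0.062) were among them. For Sparc they were Maco1 (0.078), Spata6 (0.086) and Zbtb8a (0.088), and for Sparcl1 they were Noxo1 (0.10), Gdpd1 (0.15) and Pcx (0.17). For Spp1 they were Gm3716 (0.11), Gm7901 (0.16) and Slc30a4 (0.16), for Smoc2 Npas2 (0.13), Rpl36-ps3 (0.28) and Cd1d1 (0.34), and for Smoc1 none came closer than Gm6545, Gm45250 (both 0.34) and mt-Atp8 (0.35).

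The metastasis shows the family in the resistant variant outside the primary tumor, and as 1 library it is described without a test. Sparcl1 and Smoc2 lay above all 6 tumors, as 20.9% of genes tested did, and Spp1 and Smoc1 below all 6, as 24.1% did. Against the mean log2 CPM of EMT6-PTR, Smoc2 was higher by 1.55 and Sparcl1 by 1.29, beside 12.4% of genes at least 2-fold higher. Smoc1 fell by 1.76 on the log2 scale, to 31 counts, beside 8.58% of genes at least 2-fold lower, and Spp1 fell by 0.75. Postn (0.37), Sparc (0.24), Tgfbi (-0.057) and Fn1 (-0.035) lay within the range of the 6 tumors, and the sign of each turned when 1 EMT6-PTR tumor was left out. The 6 lung epithelial markers summed to 8618 CPM in this library against 1.45 to 26.1 in the tumors, and the 6 endothelial markers to 827 against 117 to 172. The part of lung or vessel RNA in these values was not tested.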

How the data were processed

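RNA of 7 tumor libraries (stranded mRNA preparation) was checked by the authors with FastQC 0.11.5, aligned with STAR 2.6.0a to mouse GRCm38 and quantified with RSEM 1.3.1, per the labels. The deposited values are RSEM estimated counts, which share ambiguous reads between genes. The strand setting of the counting was not given in the sources used here. Of 56 member values 12 were fractional, in Spp1 and Fn1.

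Counts were rounded, filtered with filterByExpr, given upper-quartile scaling factors and compared by the quasi-likelihood test of edgeR 4.0.16 (glmQLFTest; R 4.3.3), with Benjamini-Hochberg adjustment over all genes. SE is the fold change over the square root of F. CPM use the same scale. Ratios used counts plus 0.5 and exact permutation tests (scipy 1.17.1). Alternatives used TMM, DESeq2 1.42.0, limma-voom (limma 3.58.1), other filters, the metastasis as a group, a replicate block and tumors left out. The fits were tested on simulated data. Symbols came from a separate gene name reference and positions from GENCODE M21. Promoter windows came from RefSeq, which held Postn, Tgfbi, Sparc and Spp1.

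All 8 members are named. Of each related list the 3 tested genes with the smallest p, and for each member the 3 genes nearest in pattern, are named, except 1 gene near Tgfbi that is not reported here. Members and lists were chosen with earlier results of these data known. Whether libraries were prepared in batches was not given in the sources used here. Precision rests on 3 tumors a group, and counting error adds most to genes with few counts (Comp, Ccn3, Dmp1, Smoc1, Smoc2).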

Additional observations from a re-analysis of the deposited data

How the results depend on the processing

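No member was called under any of the 14 settings, the replicate block included (0 members called; smallest adjusted p of any gene 0.60), although DESeq2 called 138 genes higher and 143 lower. Whether replicate numbers pair the tumors is not given by the labels. The deviations of same-numbered tumors correlated at 0.26, 0.25 and 0.038. EMT6-P replicates 1 and 2 correlated best with the EMT6-PTR tumor of the same number, and EMT6-P replicate 3 with EMT6-PTR replicate 1 (0.098). These values do not settle the pairing. With the block, Sparcl1 had a log2 fold change of 0.54 ± 0.15 (SE; edgeR unadjusted p = 0.016, adjusted p = 0.60). The block gave 586 genes higher and 682 lower at an unadjusted p under 0.05, against 914 and 872 without it. It moved the Postn log2 fold change from 1.69 to 1.00, and limma-voom moved it to 1.02; the cause was not tested. Of 255 alternative values, 18 turned in sign. The other 237 kept their sign or, for counts of members, the same count. With single tumors left out, the log2 fold change ran from -0.15 to 0.085 for Tgfbi, -0.044 to 0.59 for Sparc and -0.21 to 0.83 for Smoc1, and the log2 Postn to Tgfbi ratio difference from -0.033 to 1.86. Without EMT6-PTR replicate 3, added after seeing the data, Fstl1 and Stab1 turned to 0.37 and 0.13. Relative to fibroblast markers, leaving out single tumors gave differences from -0.17 to 0.99 for Postn, -0.098 to 0.14 for Sparcl1 and -0.45 to 0.15 for Smoc1. Leaving out single EMT6-PTR tumors, the metastasis minus EMT6-PTR ran from -0.34 to 1.35 for Postn, -0.21 to 0.046 for Tgfbi, -0.021 to 0.57 for Sparc and -0.084 to 0.030 for Fn1. Without Col1a1 and Col1a2 among the fibroblast markers, the relative differences of Postn and Sparcl1 became -0.24 and -0.73. These values too lean on the high Dcn of EMT6-PTR replicate 3 and were not computed without that tumor.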
